A study of Mus musculus with 8 samples.

Results

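Tcf21, Gata4, Gata6, Wt1, Hand2 and Mab21l2 encode developmental regulators known from visceral mesenchyme, and their levels were followed across sorted liver cells of the mouse. They are 6 of the 20144 genes that could be named on the array. They were chosen by name, with no measured value in the rule, but with earlier results of these data known. They have 7 probes, 1 each for 5 genes and 2 for Mab21l2, and each of the 6 genes passed the background filter on 1 array or more. The data are 8 single-channel Agilent arrays, each of a different group. There are no replicates, and the variation between animals is unknown.

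The RNA of 5 arrays came from p75NTR-positive liver cells without CD45 or Ter119. Fetal livers gave samples at E11.5 and E13.5 and, later in gestation, at E14.5 and E17.5, and newborns on postnatal day 1 (P1) gave the fifth. The nerve growth factor receptor p75NTR (gene Ngfr) is used to sort hepatic stellate cells, pericytes of the liver that store vitamin A, while CD45 and Ter119 mark leukocytes and red cells. Livers were dissociated with collagenase and these cells were sorted by flow cytometry. The sixth liver array held adult hepatic stellate cells (HSC) that were sorted by vitamin A, so age and sorting method cannot be told apart in any comparison with the adult array. The other arrays held MEF, which are skin fibroblasts from embryos grown in culture, and MSC, mesenchymal stem cells purified from bone marrow. Strain, sex and whether animals were pooled are not given in the sources used here.

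Visceral mesenchyme arises from lateral mesoderm and builds the stroma of inner organs. In the liver it comes largely from the septum transversum and its mesothelial covering, from which stellate cells descend. TCF21 and HAND2 are basic helix-loop-helix factors that bind E-box DNA with ubiquitous partners, GATA4 and GATA6 are zinc-finger factors that bind GATA sequences, and WT1 is a zinc-finger factor of mesothelium and septum transversum. In mice, loss of Gata4 in the septum transversum lineage leads to activated stellate cells and liver fibrosis, and loss of Wt1 disturbs the liver mesothelium. MAB21L2 belongs to a family named after a Caenorhabditis elegans gene and is needed for eye and body wall development in the mouse.

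The 250 bases before the start site are shown for Tcf21 and Hand2, the basic helix-loop-helix members, which were higher on all 6 liver arrays than in MEF and MSC, and for Mab21l2, which was not. They are RefSeq sequences of build GRCm38.p6, read 5′ to 3′ on the strand of the gene, and capitals mark matches on either strand to the E-box (CANNTG) or to a GATA motif (AGATAA). The Tcf21 window is chr10:22820144-22820393 on the minus strand, the Hand2 window chr8:57320733-57320982 on the plus strand and the Mab21l2 window chr3:86548284-86548533 on the minus strand.
Tcf21: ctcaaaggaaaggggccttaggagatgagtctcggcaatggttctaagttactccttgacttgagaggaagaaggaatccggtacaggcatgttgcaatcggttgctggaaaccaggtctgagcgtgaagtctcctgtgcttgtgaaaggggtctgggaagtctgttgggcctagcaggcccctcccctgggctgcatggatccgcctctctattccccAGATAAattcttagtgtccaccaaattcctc
Hand2: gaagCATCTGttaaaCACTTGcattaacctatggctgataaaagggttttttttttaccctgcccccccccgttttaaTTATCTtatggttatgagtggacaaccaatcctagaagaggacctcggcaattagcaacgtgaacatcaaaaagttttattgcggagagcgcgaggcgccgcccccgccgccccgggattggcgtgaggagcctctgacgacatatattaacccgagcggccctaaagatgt
Mab21l2: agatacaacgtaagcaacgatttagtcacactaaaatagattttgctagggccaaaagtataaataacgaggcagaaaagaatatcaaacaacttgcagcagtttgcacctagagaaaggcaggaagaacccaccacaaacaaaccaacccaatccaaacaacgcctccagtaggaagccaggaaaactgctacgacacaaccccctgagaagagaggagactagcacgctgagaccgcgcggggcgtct
The Tcf21 window held 1 GATA match, 31 bases before the start, and no E-box. The Hand2 window held 2 E-boxes, 246 and 235 bases before the start, and 1 GATA match at 172 bases, read as TTATCT. The Mab21l2 window held neither motif, and none of the 3 windows held the WT1 motif GTGGGAG. Among 32851 promoter windows of the same length 66.2% held the E-box, 9.99% the GATA motif and 8.25% the WT1 motif, with no overlap between the matches in these 3 windows. The windows held 5, 15 and 10 CG pairs in Tcf21, Hand2 and Mab21l2, against a median of 6 over all windows.

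A level here is the log2 spot signal minus the log2 75th percentile of its array, so 0 stands for a signal at that percentile. A probe is called below background where the scanner software did not mark it as well above background. The scanner software's own error of a spot was 0.14 log2 units for most levels of these genes, which gives 0.20 for a difference between 2 arrays. It covers the spot and not the animal. The arrays had 58.8% to 64.5% of spots well above background and no saturated spot. Labelled spike-in RNAs rose with a slope of 0.849 on the E11.5 array, against 0.922 to 0.933 on the others. The 4 fetal arrays shared a slide, and P1, adult HSC, MEF and MSC shared the other. All 12 stellate markers on a fixed list were well above background on each of the 6 liver arrays, with summed levels of 217, 226, 461, 650 and 389 times the array's 75th percentile from E11.5 to P1 and 1723 in adult HSC, against 42.0 in MEF and 12.3 in MSC. The sorted fractions also gave signal for other cells. Of 11 hepatoblast markers 11 were above background at each stage and 9 in adult HSC, against 4 each in MEF and MSC. Dlk1, which mesenchymal cells also make, was most of their sum at E11.5 (205 of 216), in MEF (122 of 124) and in MSC (50.3 of 51.4). Without Dlk1 they summed to 10.7, 418, 1239, 131 and 71.0 over the stages and to 55.0 in adult HSC, of which 50.3 was Trf, against 1.60 in MEF and 1.0996 in MSC. Erythroid markers, 10 genes, summed to between 11.7 and 134 over the stages and to 27.0 in adult HSC, where 26.9 was Epor and 5 of the 10 were below background, against 1.04 in MEF and 2.73 in MSC. Sinusoidal endothelial markers, 12 genes, summed to 16.6 to 57.7 over the stages and to 230 in adult HSC, of which 210 was Plvap alone, against 3.62 in MEF and 1.32 in MSC. The part of these cells in the results below was not tested. Skin fibroblast markers summed to 1.64 to 5.55 on the liver arrays, against 54.1 in MEF and 78.5 in MSC. Of them 7 of 7 were above background in MEF and 6 of 7 in MSC. S100a4 alone was 32.6 of the sum in MEF and 71.0 in MSC. Without S100a4 the sums were 21.6 in MEF, 7.52 in MSC and 1.43 to 4.95 on the liver arrays. Bone marrow stroma markers did not set MSC apart. Their sum was 28.4 in MSC, with 6 of 7 above background, and 22.2 in MEF, with 7 of 7. On the liver arrays it was 50.7 to 223. Cxcl12 alone was 48.1 of the sum at E11.5 and 209 in adult HSC, against 17.6 in MEF and 24.1 in MSC. Without Cxcl12 the sums were 1.42 to 3.30 over the stages and 13.96 in adult HSC, against 4.63 in MEF and 4.32 in MSC. Leukocyte markers summed to 25.1 in MEF, with 9 of 9 above background, and to between 0.837 and 2.09 on the other arrays. In bulk RNA of this kind, fewer cells of a type and less RNA per cell cannot be told apart.

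**Figure D1:**
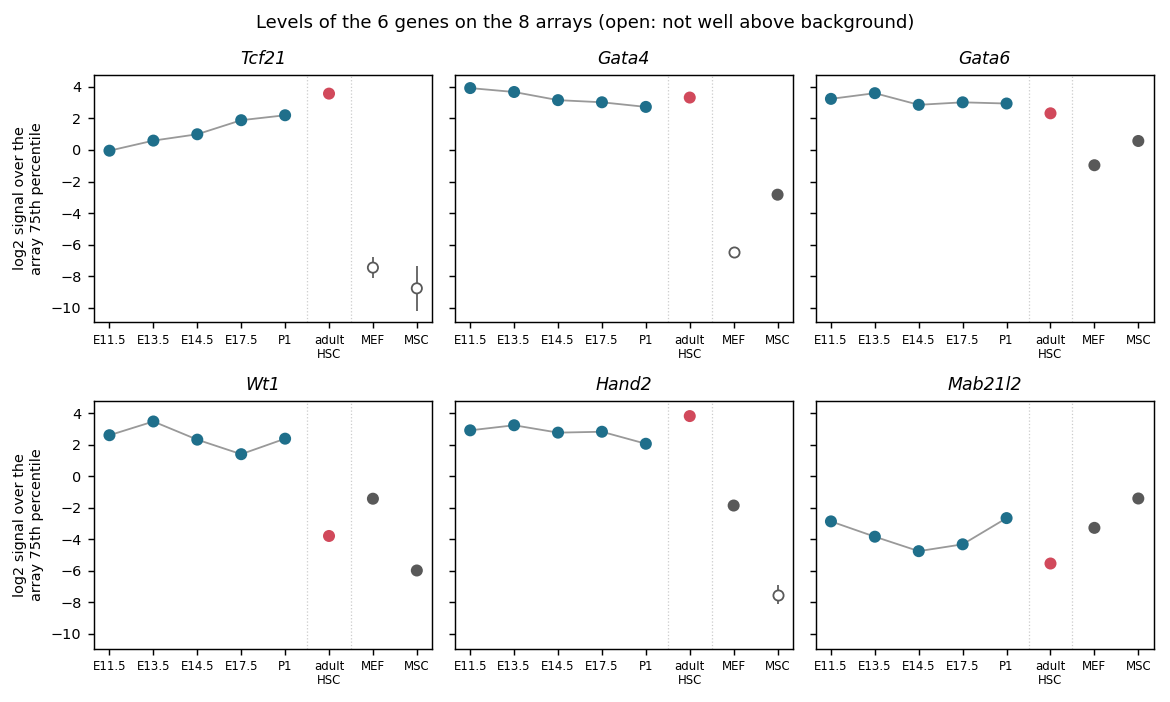
Levels of the 6 genes on each array, as log2 signal over the array's 75th percentile, with stages from left to right, then adult HSC, then MEF and MSC. Each point is 1 array, bars are the scanner software's spot error, and open points were not well above background. Tcf21, Gata4, Gata6 and Hand2 lie higher on all 6 liver arrays than on MEF and MSC, and Wt1 in adult HSC lies at -3.79.

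Tcf21, Gata4, Gata6 and Hand2, 4 of the 6 genes, were higher on all 6 liver arrays than in both MEF and MSC, a separation that 12.8% of all genes tested also showed. The same 4 passed limma's test of the 6 liver arrays against MEF and MSC (adjusted p under 0.05), where 0.847% of 16408 genes passed as higher and 0.731% as lower. Wt1 was high on the 5 p75NTR arrays but not in adult HSC and did not pass. Mab21l2 had its highest level in MSC and did not pass either. The liver arrays differed from MEF and MSC in organ, cell type and isolation, and MEF were grown in culture. These differences cannot be told apart in any comparison with MEF or MSC.

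Tcf21 marks the mesenchyme of lung, kidney, gonad, spleen and liver. Its levels were -0.04 at E11.5, 0.60 at E13.5, 0.998 at E14.5, 1.89 at E17.5, 2.20 at P1 and 3.58 in adult HSC, against -7.46 ± 0.69 in MEF and -8.78 ± 1.44 in MSC (scanner error). It was well above background on all 6 liver arrays and on neither of the others, and E11.5, the lowest liver array, lay at least 6.29 log2 units above MEF and at least 6.54 above MSC. The liver arrays averaged 1.54 ± 1.30 (SD, n = 6), and the difference was 9.66 ± 0.92 SE (limma adjusted p = 0.0039). With MEF and MSC at their background bound, Tcf21 was at least 255-fold higher. For single arrays the bound grew with stage: at least 78.3-fold above MEF at E11.5, at least 372-fold at P1 and at least 964-fold in adult HSC.

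Gata4 is known in the heart and gut as well as in septum transversum mesenchyme. Its levels were 3.93, 3.68, 3.16, 3.03 and 2.73 from E11.5 to P1 and 3.33 in adult HSC, against -6.50 ± 0.35 in MEF, which was below background, and -2.84 ± 0.15 in MSC. The 6 liver arrays lay within 1.20 log2 units of each other and at least 5.57 above MSC. Their mean was 3.31 ± 0.44 (SD, n = 6) and the difference from MEF and MSC 7.98 ± 0.84 SE (limma adjusted p = 0.0062), at least 238-fold. E11.5 was 109-fold, P1 47.5-fold and adult HSC 71.7-fold higher than MSC, where Gata4 was above background.

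Gata6, the close relative of Gata4 in endoderm and heart, had levels of 3.24, 3.60, 2.87, 3.02 and 2.95 from E11.5 to P1 and 2.33 in adult HSC, against -0.97 in MEF and 0.57 in MSC. All 8 arrays were above background, and the lowest liver array lay 1.76 log2 units over the highest of the other pair. The liver mean was 3.00 ± 0.42 (SD, n = 6), 3.20 ± 0.47 SE above MEF and MSC (limma adjusted p = 0.0232) or 9.19-fold. The margin over MEF was 18.5-fold at E11.5 and 23.8-fold at E13.5, and 9.81-fold in adult HSC. Against MSC it was 6.37-fold at E11.5, 8.19-fold at E13.5 and 3.38-fold in adult HSC.

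Hand2, a factor of heart, branchial arch, limb and enteric mesenchyme, had levels of 2.92, 3.24, 2.77, 2.83 and 2.06 from E11.5 to P1 and 3.82 in adult HSC, against -1.86 in MEF and -7.53 ± 0.60 in MSC, where it was below background. Adult HSC was highest and P1 lowest of the liver arrays, and P1 still lay 3.92 log2 units above MEF. The liver mean was 2.94 ± 0.58 (SD, n = 6), and the difference of 7.63 ± 1.25 SE (limma adjusted p = 0.0346) was at least 143-fold. That difference was 10.47 without MEF and 4.79 without MSC. The excess over MEF lay between 15.1-fold at P1 and 51.1-fold in adult HSC, and that over MSC was at least 400-fold at P1 and at least 1353-fold in adult HSC.

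Wt1 had levels of 2.61, 3.48, 2.32, 1.40 and 2.39 from E11.5 to P1, against -1.42 in MEF and -5.98 ± 0.29 in MSC, and all of them were above background. In adult HSC it had -3.79 ± 0.17, lower than in MEF and higher than in MSC. The p75NTR arrays were each higher than MEF, by 16.3-fold at E11.5, 29.8-fold at E13.5, 13.4-fold at E14.5, 7.08-fold at E17.5 and 14.02-fold at P1, whereas adult HSC was 5.15-fold lower than MEF. Over all 6 liver arrays the difference was 5.10 ± 1.97 SE (limma adjusted p = 0.222). Of the 8 arrays, only leaving out adult HSC gave a call, at 6.14 (limma adjusted p = 0.0434). The difference was 2.82 without MSC (0.80) and 7.38 without MEF (0.128), and without 1 of the p75NTR arrays adjusted p was 0.277 to 0.337.

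Mab21l2 was dim on the liver arrays but above background on all 8 with the probe taken, the brighter of its pair. Its levels were -2.86 ± 0.16, -3.83 ± 0.16, -4.75 ± 0.21, -4.32 ± 0.18 and -2.65 ± 0.15 from E11.5 to P1 and -5.53 ± 0.27 in adult HSC, against -3.27 ± 0.15 in MEF and -1.41 ± 0.14 in MSC. All 6 liver arrays lay below MSC, by 1.24 log2 units at P1 and 4.13 in adult HSC, and on both sides of MEF. The difference of the liver arrays from MEF and MSC was -1.65 ± 0.85 SE (limma adjusted p = 0.324). The second Mab21l2 probe gave -3.78, -4.25, -6.51, -5.29 and -3.19 from E11.5 to P1 and -8.12 in adult HSC, against -3.30 in MEF and -1.28 in MSC, and was below background at E14.5 and in adult HSC. Both probes had MSC as the highest array and adult HSC as the lowest.

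**Figure D2:**
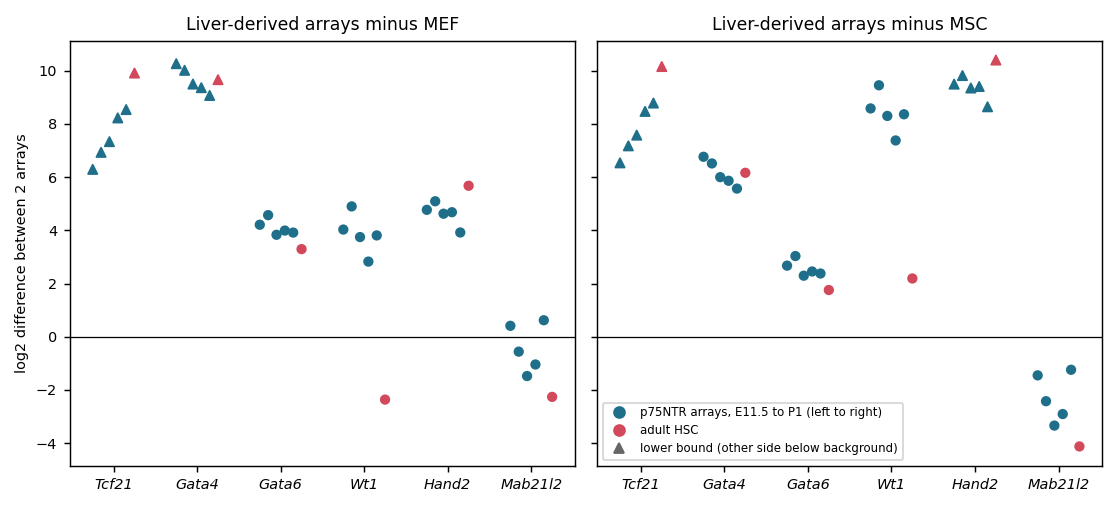
Log2 difference of each liver array from MEF (left panel) and from MSC (right panel) for the 6 genes; within a gene the stages run from E11.5 to P1, followed by adult HSC. Triangles are lower bounds where the MEF or MSC level was below background. Tcf21, Gata4, Gata6 and Hand2 lie above 0 in both panels, and adult HSC has Wt1 at -2.36 relative to MEF.

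Array by array and counted at 1 log2 unit or more, Tcf21, Gata4, Gata6, Wt1 and Hand2, or 5 of the 6 genes, were higher than MEF at each of the 5 stages. The share of all genes that far above MEF was 16.0% at E11.5, 13.3% at E13.5, 14.1% at E14.5, 14.7% at E17.5 and 17.7% at P1. In adult HSC 4 of 6 were higher than MEF, where 18.5% of all genes were, and Wt1 and Mab21l2 were lower, as were 23.4%. The same 5 genes were higher than MSC on all 6 liver arrays, beside 24.5%, 24.7%, 25.5%, 25.7% and 29.3% of genes from E11.5 to P1 and 25.1% in adult HSC. Mab21l2 was lower than MSC on each of them, beside 15.0%, 16.1%, 17.3%, 19.8% and 19.9% from E11.5 to P1 and 25.1% in adult HSC. It was lower than MEF at E14.5 and E17.5, where 13.4% and 13.9% of genes were. These comparisons share the single MEF and MSC arrays.

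Among the alternatives that could test them, the calls for Tcf21 and Gata4 ended only in the fit of slide 2 alone, with P1 and adult HSC against MEF and MSC, in which no gene passed (limma adjusted p = 0.362 for Tcf21 and 0.504 for Gata4; 1446 of 16002 genes at an unadjusted p under 0.05). Those for Gata6 and Hand2 also ended with slide as a block (limma adjusted p = 0.101 and 0.114) and without E13.5, E14.5 or E17.5, where adjusted p was 0.0556, 0.0684 and 0.0696 for Gata6 and 0.0887, 0.0896 and 0.0917 for Hand2; Gata6 ended with median scaling (0.0534) as well, and Hand2 without E11.5 (0.0637) or P1 (0.0613). The calls held without MEF and without MSC, where the differences were 10.31 and 8.999 for Tcf21, 6.15 and 9.81 for Gata4, and 2.43 and 3.97 for Gata6.

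MSC and MEF differed from each other in 5 of the 6 genes by at least 1 log2 unit, beside 35.6% of all genes, and Tcf21 was below background in both. Gata4 was at least 11.3-fold higher in MSC, Gata6 2.90-fold and Mab21l2 3.64-fold. Wt1 was 23.5-fold lower in MSC than in MEF, and Hand2 at least 26.5-fold lower. Both arrays lay on the same slide.

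Over the 5 p75NTR stages Tcf21 was the only one of the 6 genes that was higher at each stage than at the stage before, and Gata4 the only one that was lower at each. Among the 12689 genes above background at all 5 stages, 3.23% were higher at each step and 7.95% lower at each. The slope over stage order was 0.58 ± 0.07 SE per stage for Tcf21 (limma adjusted p = 0.0589) and -0.30 ± 0.06 SE for Gata4 (limma adjusted p = 0.0793). Neither passed, nor did any other of 15492 genes by limma, 0.0% rising and 0.0% falling, although 4349 had an unadjusted p under 0.05 (12.4% rising, 15.6% falling), among them Tcf21 (0.000428) and Gata4 (0.00464). Genes that passed the adjusted test numbered 744 with normexp background correction, which called Tcf21 (limma adjusted p = 0.0275) and Gata4 (0.0487), and 657 among genes above background at all 5 stages, which called Tcf21 (0.035). Marker genes of other mesenchymal cells were also higher at later stages. Smooth muscle and pericyte markers summed to 81.7, 56.6, 122, 247 and 339 over the 5 stages, with a median slope of 0.67 over 10 genes, of which 0 passed (7 at an unadjusted p under 0.05). Portal fibroblast markers summed to 39.0, 52.5, 37.1, 117 and 236, with a median slope of 1.42 over 10 genes, of which 0 passed (7 at an unadjusted p under 0.05). Their part in the Tcf21 slope was not tested.

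The span between the lowest and highest of the 5 stages was 2.25 log2 units for Tcf21, 2.10 for Mab21l2 and 2.07 for Wt1, larger than in 87.7%, 85.9% and 85.5% of the 12689 genes. It was 1.20 for Gata4, 1.17 for Hand2 and 0.74 for Gata6, against a median of 0.92 over all of these genes. Gata6, Hand2 and Wt1 each peaked at E13.5, as did 15.5% of genes, Gata4 at E11.5, as did 32.4%, and Tcf21 and Mab21l2 at P1, as did 21.3%. Only the Wt1 peak lay more than 2 scanner errors above the next highest stage, by 0.87 log2 units. The slopes were -0.12 ± 0.09 SE for Gata6, -0.25 ± 0.19 for Wt1, -0.21 ± 0.10 for Hand2 and -0.01 ± 0.27 for Mab21l2, with limma adjusted p between 0.235 and 0.989.

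Single steps between neighbouring stages were mostly small. From E11.5 to E13.5 and from E14.5 to E17.5, 0 of the 6 genes moved by 1 log2 unit, where 6.31% and 7.81% of all genes were that much higher and 6.95% and 7.61% lower. Wt1 was 2.22-fold lower at E14.5 than at E13.5, by -1.15 ± 0.20 log2 units (scanner error), a step at which 5.28% of genes were that much lower and 8.68% higher. It was lower again at E17.5 than at E14.5, by -0.92 ± 0.20, and higher at P1 than at E17.5, by 0.98 ± 0.20. Mab21l2 was 3.17-fold higher at P1 than at E17.5, where 10.4% of genes were at least 1 log2 unit higher and 4.19% lower, and this step crosses the slides. With normexp background correction the largest upward step of Mab21l2 was 0.605, under 1 log2 unit. The Tcf21 steps were 0.64, 0.40, 0.89 and 0.31, each with an error of 0.20, so that the second and the last were within 2 errors of 0. With median scaling the last was -0.03. The Gata4 steps were -0.25, -0.52, -0.14 and -0.29, of which only the second exceeded 2 errors.

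**Figure D3:**
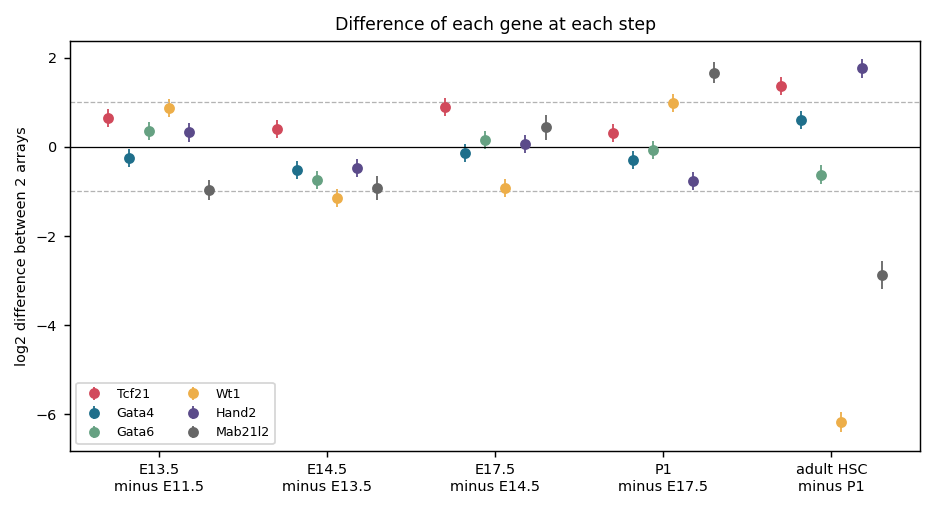
Log2 difference of each gene at each step from 1 stage to the next and between adult HSC and P1, with bars for the scanner software's error of the difference and dashed lines at 1 log2 unit either way. Tcf21 points are above 0 at all 5 steps, and the lowest point is Wt1 in adult HSC minus P1, at -6.17.

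Set end to end, Tcf21 was 2.25 ± 0.20 log2 units (scanner error) or 4.75-fold higher at P1 than at E11.5, and Gata4 was 2.29-fold lower at P1, by -1.20 ± 0.20. Of the 6 genes 1 was thus higher and 1 lower by 1 log2 unit or more, and 31.1% of all genes were at least that far apart. Hand2 differed by -0.85, or -1.04 with median scaling, Gata6 by -0.30, Wt1 by -0.22 and Mab21l2 by 0.21, the last 3 by less than 2 errors of the difference. With the E11.5 array at a lower spike-in slope and the arrays on different slides, the part of either in these differences was not tested.

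Shape over the 5 stages was compared with each gene's own mean removed. Gata6 and Hand2 lay closest together, at a root mean square distance of 0.27 log2 units. Gata4 and Hand2 followed at 0.28 and Gata4 and Gata6 at 0.31. These distances differed by less than the scanner error of a level, so their order is not resolved. Gata4, Gata6 and Hand2 also had the smallest stage spans of the members. Tcf21 was between 1.002 and 1.32 from each of the others. Over all 8 arrays, where MEF and MSC weigh most, Tcf21 and Hand2 were 1.72 apart and Tcf21 and Gata4 1.92, the smallest distances among the members. With levels below background held at the array's floor these distances were 1.55 and 1.57, in the same order but with a narrower gap.

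Adult HSC differed from P1 by 1 log2 unit or more in 4 of the 6 genes, with Tcf21 and Hand2 higher, beside 13.6% of all genes, and Wt1 and Mab21l2 lower, beside 21.8%. Both arrays lay on the same slide. Tcf21 was 2.59-fold higher in adult HSC, by 1.37 ± 0.20 log2 units (scanner error), and Hand2 3.38-fold higher, by 1.76 ± 0.20. Wt1 was 72.2-fold lower, by -6.17 ± 0.22, and only 1.17% of genes were lower by more. Mab21l2 was 7.37-fold lower, by -2.88 ± 0.31, though by -0.80 with normexp background correction, under which Wt1 was lower by -4.22. Gata4 at 0.59 ± 0.20 and Gata6 at -0.62 ± 0.20 stayed under 1 log2 unit, but with median scaling Gata4 was at 1.38 and Gata6 at 0.16, on the other side of 0. The adult array set against E11.5 had Tcf21 12.3-fold higher, beside 18.9% of genes at least 1 log2 unit higher, and Wt1 84.0-fold and Mab21l2 6.38-fold lower, beside 27.3% lower.

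In the order of their levels the genes placed adult HSC differently. It was the highest array for Tcf21 and Hand2, above the next by 1.37 and 0.58 log2 units, and the lowest liver array for Gata6, Wt1 and Mab21l2. For Gata4 it fell between E13.5 and E14.5, and no 2 neighbours in the order of the liver arrays differed by more than 2 errors. For Gata6 the neighbours differed by less than 2 errors from E13.5 down to E14.5, and adult HSC lay 0.54 below E14.5. With median scaling the place of adult HSC changed for Gata4, to above E13.5, and for Gata6, to above P1.

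Markers of mesothelium, the epithelial layer on the liver surface in which WT1 is known, were measured beside Wt1. Of 12 such genes 10, 12, 7, 7 and 9 were well above background over the stages from E11.5 to P1. In adult HSC 1 was, against 12 in MEF and 6 in MSC, beside 58.8% to 64.5% of all spots on the arrays. The summed levels of the 12 genes were 11.97, 22.2, 33.4, 9.97 and 19.3 times the array's 75th percentile from E11.5 to P1. The sum was 0.459 in adult HSC, against 19.6 in MEF and 18.3 in MSC. Pdpn alone was 15.3 of the sum in MEF and 9.58 in MSC, and Alcam 6.16 at E11.5 and 10.3 at E13.5. The stage with the lowest Wt1, E17.5, also had the lowest sum of the 5 stages, and E14.5 had the highest. Krt18, a keratin that hepatoblasts also make, was 23.2 of the 33.4 at E14.5. Without Krt18 the sums were 8.85, 13.4, 10.1, 7.15 and 10.1 from E11.5 to P1, with E13.5 highest and E17.5 still lowest. Between adult HSC and P1, 8 of the 9 markers above background on either array were at least 1 log2 unit lower in adult HSC, with a median of -4.69 over the 9, against a median of -0.06 over all genes. In adult HSC only Alcam, an adhesion molecule, was above background, while Upk3b, Msln, Krt19 and Pdpn were not. Upk3b, a uroplakin, and Bnc1, a zinc-finger factor, had -2.13 and -2.17 at E11.5 and -2.03 and -2.26 at E13.5, and from E14.5 to P1 Bnc1 was below background and Upk3b between -6.14, which was below background, and -4.07. Other markers on the list went the other way. Pdpn had a log2 level of -0.54 at E11.5 and 1.61 at P1, and Krt8 had -1.96 and 0.22. Of the 11 markers above background on either array, 4 were at least 1 log2 unit higher at P1 than at E11.5 and 4 lower. Of all genes 31.1% were at least that far apart. The part of mesothelial cells in the Wt1 difference was not tested. The portal fibroblast markers, at 236 at P1, summed to 1.55 in adult HSC, against 142 in MEF and 145 in MSC, and their part was not tested either.

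**Figure D4:**
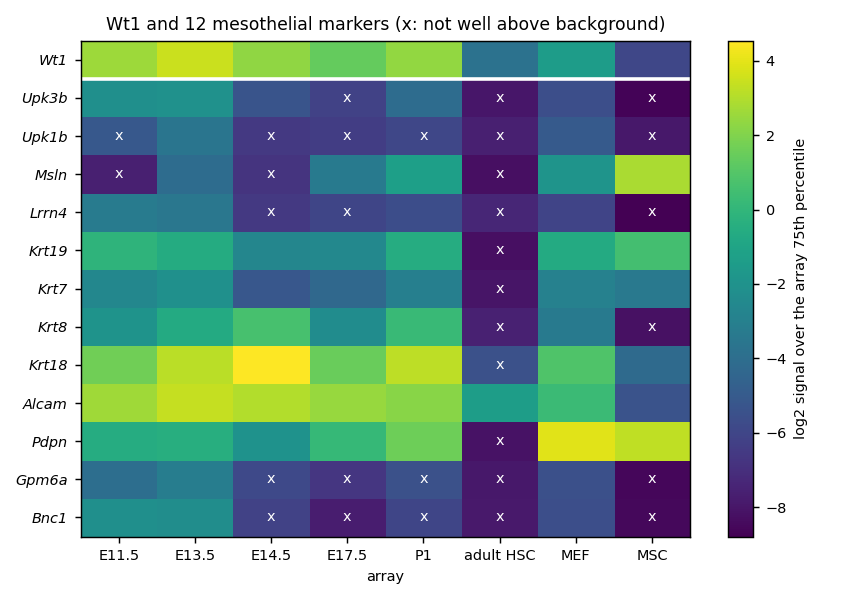
Levels of Wt1 (top) and 12 mesothelial marker genes on the 8 arrays, coloured by log2 signal over the array's 75th percentile; crosses mark levels not well above background. In the adult HSC column 11 of the 12 markers carry a cross, and Wt1 stands at -3.79.

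For each member the 3 named genes with the nearest pattern were taken among genes above background on exactly the same arrays, by the root mean square distance over 8 arrays after removing each gene's mean. These distances describe 8 arrays that share slides and scaling. As the genes were picked by them, a likeness to the member is not a separate result. With levels below background held at the array's floor, 2 of the 3 genes for Hand2 stayed among its nearest, without Tbx20, and all 3 did for each other member. For Tcf21 these were Reln at 0.68, Pcdh12 at 0.85 and Adamts13 at 1.097, among 69 candidates with a median of 2.72. Reln encodes reelin, a secreted glycoprotein that was on the stellate marker list, and Adamts13 the protease that cleaves von Willebrand factor. Reln had -0.60, -0.66, 0.78, 1.38 and -0.11 from E11.5 to P1 and 2.89 in adult HSC, against -8.09 in MEF and -8.72 in MSC. Its place below background in MEF and MSC was set by the choice of candidates. Like Tcf21, Reln was highest in adult HSC, but it was not higher at each stage.

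For Gata4 the nearest of 35 candidates were Frem3 at 1.32, Foxf1 at 1.44 and Gm3893 at 1.70, with a median of 2.91. For Gata6 they were Ptch1, the Hedgehog receptor, at 0.34, Hlx at 0.54 and Syne2 at 0.61, among 11273 candidates with a median of 1.58. Hand2 had Tbx20 at 0.42, Robo2, a receptor for Slit proteins, at 0.45 and Ccnjl at 0.49, among 420 candidates with a median of 2.25. Tbx20 had 0.35, 1.05, 0.93, 1.03 and 0.55 from E11.5 to P1 and 2.49 in adult HSC, against -3.81 in MEF and -8.73 in MSC. For Wt1 they were Fndc5 at 0.76, Capn6 at 0.86 and the mesothelial list's Alcam at 0.87, with a median of 3.29 over 11273 candidates. Alcam had 2.62, 3.37, 3.01, 2.46 and 2.19 from E11.5 to P1 and -1.35 in adult HSC, against 0.31 in MEF and -5.36 in MSC. Its order of stages was like that of Wt1 in having E13.5 highest, and adult HSC was its lowest liver array. For Mab21l2 the nearest were Insyn1 at 0.34, Sipa1l2 at 0.38 and Lrrc73 at 0.44, with a median of 1.28.

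Relatives and partners of the 6 genes were read from lists of their families. The counts of all these lists stand beside the following shares of all genes. In limma's liver comparison 3210 of 16408 had an unadjusted p under 0.05, and in its slope test 4349 of 15492. At P1 against E11.5, 31.1% were at least 1 log2 unit higher or lower. In adult HSC against P1, 13.6% were that much higher and 21.8% lower. Of 14 measured basic helix-loop-helix relatives and partners of Tcf21 and Hand2, 0 passed limma's test of the liver arrays against MEF and MSC (4 at an unadjusted p under 0.05), with a median difference of 0.06 beside 0.02 over all genes. Msc, also called musculin and close to Tcf21 in sequence, had 4.34 (limma adjusted p = 0.227) and Hand1, the sister gene of Hand2, 3.56 (limma adjusted p = 0.292). Both were below background in MEF and MSC, Msc also at E13.5 and E14.5 and Hand1 in adult HSC. With such levels at the floor they had 2.86 and 2.96, less in size than Scx, the tendon factor scleraxis, which was above background on all 8 arrays and had -3.15 (limma adjusted p = 0.332). Hand1 was 4.09 log2 units lower at P1 than at E11.5, with -0.39, -2.72, -3.22, -4.26 and -4.48 over the stages. Twist1, a factor of head and limb mesenchyme, had -2.86 in the same comparison. At 1 log2 unit 4 of 14 were higher and 4 lower at P1, and 2 of 13 higher and 5 lower in adult HSC than at P1. In that comparison Scx had -4.44 and Tcf23 had 2.38.

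Among 12 other GATA factors and cofactors 1 passed as higher in the liver arrays and 0 as lower, with a median of 0.38. This was Zfpm2, also called FOG2, the cofactor that binds GATA4 in the heart, at 1.91 (limma adjusted p = 0.0427). The Zfpm2 call ended without any 1 of the 5 p75NTR arrays (adjusted p between 0.0735 and 0.11), with median scaling (0.174) and with slide as a block (0.118). Gata1, the erythroid factor, had 6.49 (limma adjusted p = 0.159) and was above background on the 5 p75NTR arrays alone. It was at -7.78 in adult HSC, below background as in MEF and MSC, although the erythroid sum there, carried by Epor, was 27.0. It passed without adult HSC, at 7.69 (limma adjusted p = 0.00504). At P1 against E11.5, 1 of the 12 was at least 1 log2 unit higher and 6 lower, with Nkx2-5 at -4.77 and Gata3 at or below -3.34, being below background at P1. In adult HSC against P1, 0 of 11 were higher and 6 lower, led by Gata1, at least 3.83 log2 units lower, and Gata2 at -2.41.

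Of 6 partners of WT1 and relatives of MAB21L2, 0 passed in the liver comparison (2 at an unadjusted p under 0.05), with a median of 0.16. Pawr, a protein that binds WT1, had 1.90 (limma adjusted p = 0.25), 3.53 without MEF (limma adjusted p = 0.0201) and 0.26 without MSC (0.942). Mab21l1, the closest relative of Mab21l2, was below background on all 6 liver arrays and above it in MEF and MSC. Its fitted difference of -1.63 (limma adjusted p = 0.127) therefore rests on dim spots. It was -1.14 with those levels at the floor and had the other sign under normexp, at 0.19. In adult HSC against P1, 1 of 5 was higher and 2 were lower by 1 log2 unit, Basp1, a corepressor that binds WT1, at -2.87 and Mab21l3, below background in adult HSC, at or below -2.41. At P1 against E11.5, 0 of 5 were higher and 1 lower, Mab21l3 at -1.79.

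The list of other visceral and septum transversum mesenchyme factors held 16 genes, of which 4 of 14 tested passed as higher in the liver arrays and 0 as lower, with a median difference of 2.44. These were Lhx2, a LIM homeobox factor whose loss in mice leads to liver fibrosis, at 8.44 (limma adjusted p = 0.00203), Tbx20, a T-box factor, at 7.34 (0.0298), Hlx, a homeobox factor of liver mesenchyme, at 2.96 (0.0322), and Foxf1, a forkhead target of Hedgehog signals, at 4.94 (0.0481). Foxf1 was below background in MEF and Tbx20 in MSC, so their differences depend on dim spots. The calls for Tbx20, Hlx and Foxf1 ended with slide as a block (limma adjusted p = 0.097, 0.109 and 0.121). Those for Tbx20 and Foxf1 ended without any 1 of the 5 p75NTR arrays (adjusted p between 0.051 and 0.0826 for Tbx20, and 0.0816 and 0.119 for Foxf1), and that for Hlx without E11.5, E13.5, E14.5 or E17.5 (0.0604 to 0.0856). Without MEF and without MSC the differences were 9.80 and 4.88 for Tbx20 and 3.06 and 6.82 for Foxf1. Those for Hlx and Foxf1 also ended with median scaling (0.107 and 0.0842), and that for Foxf1 with quantile scaling (0.069) and no filter (0.0518). Over the stages 0 of 14 passed the slope test (6 at an unadjusted p under 0.05), with a median of -0.23 per stage. At P1 against E11.5, 1 of 15 was at least 1 log2 unit higher, Prrx1 at 2.60, and 6 were lower, with Tbx18, below background at P1, at or below -2.62. In adult HSC against P1, 5 of 14 were higher and 7 lower with a median of -2.04, with Nkx2-3 and Prrx1, both below background in adult HSC, at least 4.57 and 4.26 log2 units lower. No list gave a gene that passed the slope test by limma. The medians over all genes were -0.10 for P1 against E11.5 and -0.03 per stage for the slope.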

How the data were processed

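Each of the 8 Agilent arrays holds 1 group, so nothing is averaged over animals. Spot intensity, as deposited in the scanner files, is background-subtracted and was made by Agilent Feature Extraction 11.5.1.1, per the file headers. The authors' deposited log2 table holds these signals scaled to each array's 75th percentile, per the labels. Set against the scanner values after offsets of -0.15 to -0.103, between 93.2% and 100% of probes matched within 0.02, with the same direction and no centring of genes. It served as an alternative only.

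Levels are log2 signals minus the log2 75th percentile of all probes on the array. Spots marked as outliers were dropped, spots of a probe averaged, and the probe brightest on average taken for each gene. RefSeq accessions (assembly GRCm38.p6) named 67.4% of 39429 probes. The array design uses another build, so no probe positions are given. Genes above background on at least 1 array of a comparison were tested.

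Both fits, the liver arrays against MEF and MSC and a slope over the order of 5 stages, used limma 3.58.1 (R 4.3.3) across all genes, with p adjusted by Benjamini-Hochberg and a threshold of 0.05. Without replicates the spread in them is that between arrays of different stages or cell types. Pairs of arrays have no test. Genes 1 log2 unit or more apart were counted, with a level below background set at its own value or, if higher, at the array's lowest signal marked well above background. The scanner software's spot error stands beside single levels, and having few arrays limits the precision. Probes spotted repeatedly on 1 array had SDs of 0.0597 to 0.0883 log2 units.

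Alternatives were median and quantile scaling, normexp background correction (offset 50), no filter, only genes above background everywhere, averaged probes, the authors' values, a floor at background, each array left out, slide as a block, each slide alone, and days for stage order (P1 as day 20). Normexp used median spot signals, as mean signals were not in the files used. On the E13.5 array 13 spots with a local background over 10 times the array median were set to that median for it, a step added after seeing the data. The fits were tested on simulated data. The named genes are the 6 members, the 3 nearest genes to each, and in each list the genes that passed a test and the 2 with the largest difference in a comparison. Marker genes were named beside Wt1 after their values were seen. The 6 genes and all lists were chosen with earlier results of these data known. Tcf24, Tf and Cd68 had no named probe and are not analysed here.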

Additional observations from a re-analysis of the deposited data

How the results depend on the processing

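Tcf21 and Gata4 kept their liver call in 16 of 17 alternatives each (log2 differences of 4.55 to 11.01 and 5.71 to 9.81), Gata6 in 12 of 18, Hand2 in 10 of 17, and Wt1 and Mab21l2, not called, were called in 1 and 0 of 18. All 6 kept their sign in each. The number of the 6 genes called, 4, became 1 among genes above background on all 8 arrays, since Tcf21, Gata4 and Hand2 cannot enter there, 2 with slide as a block, 0 within slide 2, and 2 to 5 with 1 array left out. Of all genes 259 were called (139 higher, 120 lower), against 160 with the filter on all arrays, 74 with slide as a block, 0 within slide 2 and 82 to 1278 with 1 array left out (82 without E17.5, 1278 without MEF). Median scaling moved the median difference of all genes to -0.35, against 0.02, and normexp moved it to 0.22. For the slope, 0 genes became 744 with normexp, 99 with quantile scaling, 657 with the filter on all 5 arrays and 33 with days in place of order (limma), and stayed at 0 with any 1 array left out. The members among them were 2 (Tcf21, Gata4), 1, 1 (Tcf21 both times) and 0. The Mab21l2 slope changed sign with the mean of its probes (0.0048) and with days (0.0321 per day), and ran from -0.53 to 0.40 with 1 array left out. Mab21l1 changed sign in the liver comparison with normexp (0.1922), and Nkx2-5 in its slope without E11.5, with a range of -1.73 to 0.33 over the arrays left out. The cause of these changes was not tested. The fetal slide alone is the same fit as without P1. No paired analysis was possible because each group has 1 array. Signals near background limit Tcf21, Gata4 and Hand2 in MEF or MSC to bounds.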
